A study of Melianthus elongatus with 11 samples.

Results

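MATE efflux transporters are membrane proteins that move organic acids, phenolics and other small molecules out of the cytoplasm, either across the plasma membrane or into the vacuole. In the table deposited for Melianthus minor, a shrub with black nectar, 100 of 68651 contigs (assembled transcript sequences) were annotated as MATE efflux family proteins. The 64 contigs described here also reached 5 or more in 2 or more of the 11 libraries. They were closest to 22 Arabidopsis loci, 19 of which were the best match of 2 or more contigs and 3 of a single contig. The remaining 36 annotated contigs stayed below that level, so the 64 were chosen partly by their own values. Just inside the limit, the second highest library value was 5.15 for Mm303052, 5.59 for Mm52542 and 5.78 for Mm288816. Just outside it, that value was 4.80 for Mm131768 and 4.77 for both Mm135586 and Mm260047.

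Members of the family exchange their substrate against protons or sodium ions, and plants carry many more of them than animals do. In Arabidopsis, FRD3 releases citrate into the xylem, where citrate keeps iron soluble and mobile. Its relative DTX42 releases citrate from roots. TT12 loads flavonoid precursors into the vacuoles of the seed coat, EDS5 exports a salicylate precursor from plastids, and DTX33 is a chloride channel of the vacuolar membrane. The submitters' title likens the dark pigment of the nectar to iron-gall ink, a complex of iron with phenolic acids. Citrate and phenolics are substrates known for this family, but no substrate was measured here. A contig is named by the Arabidopsis gene it most resembles, which does not establish that it does the same in Melianthus.

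Leaves and nectaries, the glands that secrete nectar, were taken from arboretum plants, and 11 libraries form 4 groups by library code: code 0 (0-A, 0-B), code 1 (1-A, 1-B, 1-C), code 2 (2-A, 2-B, 2-C) and code L (L-A, L-B, L-C). No treatment or genotype is filed, and the sources used here do not give the meaning of the codes. Mature leaf is the filed tissue of both code 0 libraries and of 1-A. The filed stage is presecretory nectary for 1-B and 1-C, secretory for all of code 2 (although 2-A is titled presecretory) and postsecretory for all of code L. Since these labels cut across the codes, libraries were compared by code, and a code is given neither a tissue nor a stage. Separate plants are not recorded for the libraries of a code, so the p-values reflect only how far these libraries spread, which may be technical.

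Values are the authors' normalised read counts, which summed to 631454 to 1168305 per library. The depth in reads is unknown. Contigs of leaf photosynthesis markers (44 contigs of 5 of the 6 loci listed) summed to 19060 to 32102 in the libraries of code L, filed as postsecretory nectary, and to 1414 to 2387 in the other 8, among them the 3 filed as leaf. Contigs of nectary markers (40 contigs of 5 of the 6 loci) summed to 24.4 to 106 in code L and to 1593 to 9915 in the others, and the highest contig like CRC, a regulator needed for nectaries, was listed at 0 in L-B and L-C. That CRC-like contig, Mm734, held 932 of the 1838 in 0-A and 1215 of the 1593 in 0-B. Mm6, the main contig like SWEET9, reached only 0.84 and 2.86 there and 0.105 to 36.8 in code L. Across codes 1 and 2 it reached 1969 to 5216. The test below called 55.5% of all contigs higher in codes 0, 1 and 2 than in code L and 13.8% lower. On the same values as deposited, 24 of 26 nectary marker contigs were called higher and 1 lower. The lower one, Mm253088 (like CWINV4), had 15.3 to 23.5 in code L and at most 1.27 elsewhere. The filed tissue of code L and of 0-A, 0-B and 1-A is therefore not matched by these sums. Single nectary markers differed for code 0. The vascular markers SUC2 and XCP1 summed to 7.78 to 27.7 in all libraries, and the pollen marker AGP6 to 37.9 to 214 outside code L and 11.5 to 16.8 within it. The part of these cell types in the results below was not tested, and in bulk samples fewer cells of a type and less RNA per cell cannot be told apart.

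The 64 MATE contigs took 0.0668% to 0.126% of each library's total. Their summed value was 1183 and 1088 in 0-A and 0-B. The code 1 libraries summed to 814 to 898, those of code 2 to 757 to 1267 and those of code L to 557 to 686. A single contig, Mm89, carried much of this outside code L: without it code 0 summed to 943 and 994, code 1 to values from 665 to 719, code 2 from 637 to 868 and code L from 557 to 683. By mean value, 16 contigs were highest in code 0, 12 in code 1, 16 in code 2 and 20 in code L. Only 4 contigs reached 5 in all 11 libraries, and 10 reached it in code L alone against 2 in code 0, 1 in code 1 and 1 in code 2.

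**Figure D1:**
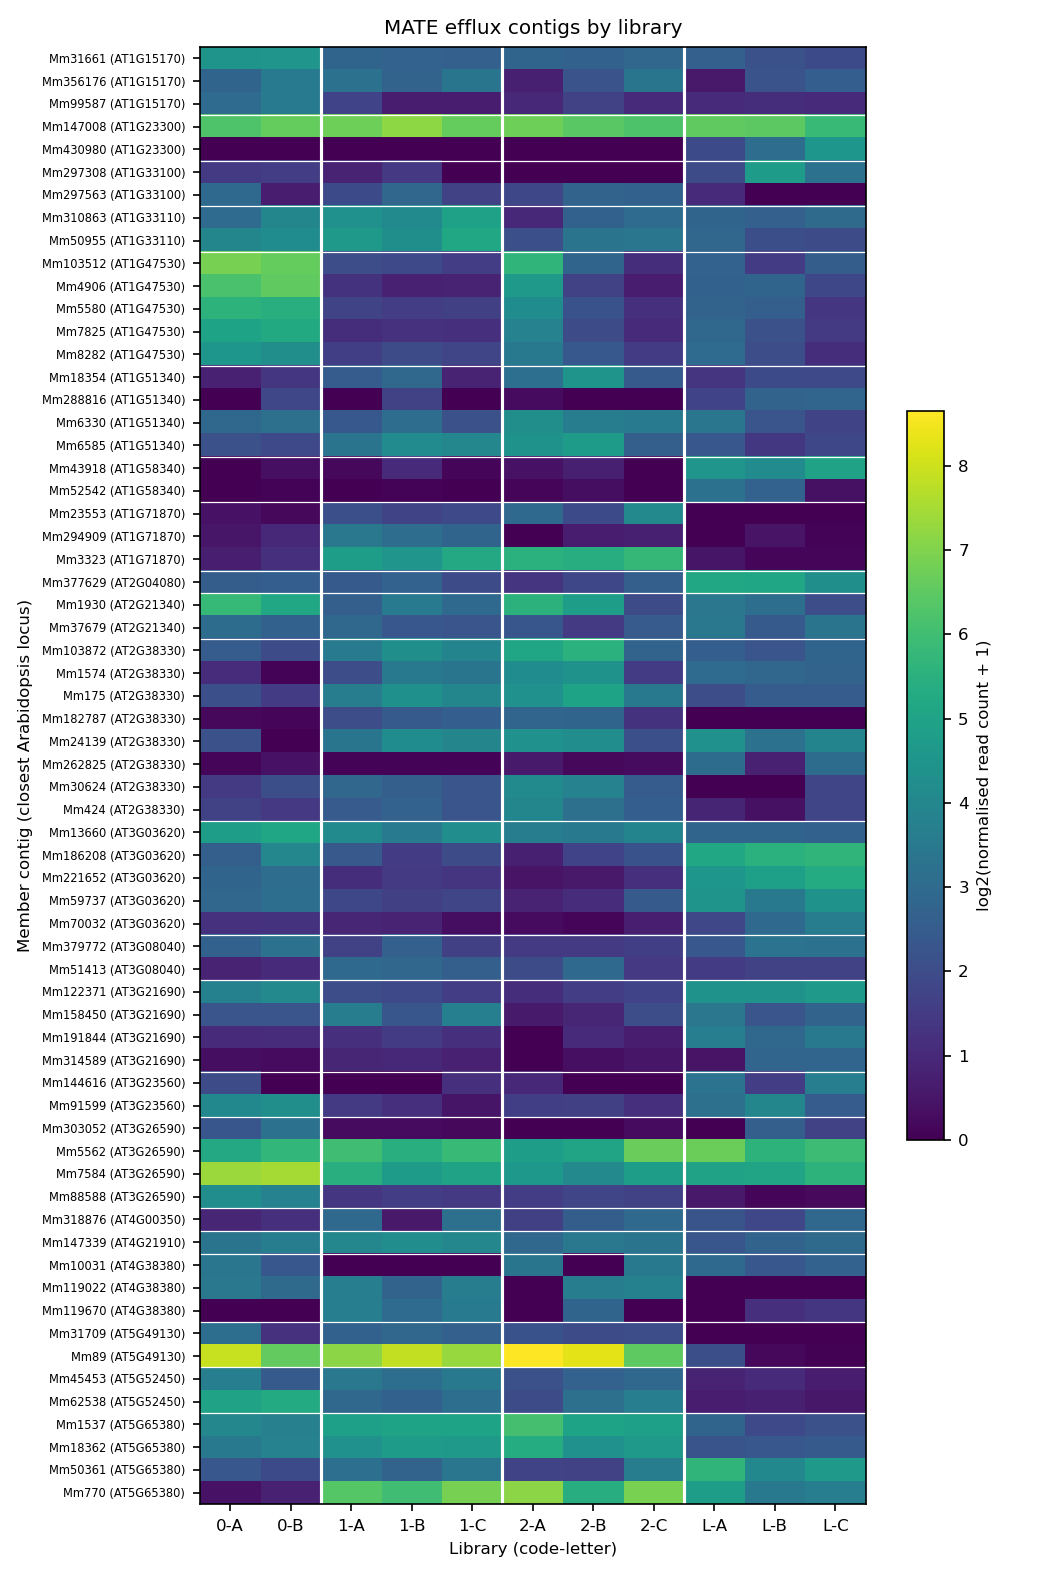
Each row is a MATE contig with its closest Arabidopsis locus, each column a library, and the colour is log2(normalised read count + 1). Of the 64 contigs, 16, 12, 16 and 20 had their highest mean in codes 0, 1, 2 and L, and the band of Mm89 was bright in codes 0, 1 and 2 and dark in code L.

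Of the 64, 41 contigs from 19 loci reached 10 in 2 or more libraries and entered the tests. The other 23 were below that level. Differences are log2(value + 1) differences tested with limma over all 26053 contigs that passed this filter, and a contig was called at a Benjamini-Hochberg adjusted p under 0.05 and a difference of at least 1. The scale understates the change of low contigs. A contig that passed only through the code where it is high had to differ between codes, so the counts of calls below describe the members and support nothing beyond that. Values are not per length, so they are compared between libraries and not between contigs. Contigs of the same locus may be pieces or near copies of a transcript that share reads, and their split is uncertain. The 4 comparisons also share libraries.

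The question of the first comparison is which transporters separate code 1 from code 0. Of the 41 MATE contigs tested, 7 were higher in code 1, 12 were lower and 22 were not called. Of all contigs tested 25.8% were called, 13.6% higher and 12.2% lower, and the median difference was 0.22 for the MATE contigs and 0.10 for all contigs. With libraries scaled to equal totals the split was 5 higher and 14 lower, and with median ratio scaling 5 and 12. The count fell to 9 without 0-B and to 0 (17 at an unadjusted p under 0.05, limma) when libraries were grouped by filed tissue and stage. The calls over all contigs fell as well, from 6734 to 2870 and 0.

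The contigs lower in code 1 were led by those closest to DTX33 (AT1G47530). Mm103512 was at 117 in 0-A and 95.2 in 0-B, and at 3.15, 2.75 and 1.94 in the code 1 libraries. Code 0 and code 1 did not overlap, and code 1 was lower by a log2 difference of -4.90 (SE 0.96; limma, adjusted p = 0.00346). Mm4906 stood at 70.1 and 91.4 in code 0 and at 1.39, 0.747 and 0.838 in code 1, a difference of -5.36 (SE 0.89; limma, adjusted p = 0.00124). All 5 MATE contigs of this locus were called lower, the other 3 (Mm7825, Mm5580 and Mm8282) by -3.95, -3.83 and -2.62. The call of Mm8282 was lost without 0-A and without 0-B.

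In code 2 the DTX33-like contigs depended on the library. Mm103512 was at 49.1 (2-A), 5.96 (2-B) and 1.21 (2-C), and Mm4906 at 24.4, 2.19 and 0.570. Library 2-A was the highest of code 2 for each of the 5 contigs but below both code 0 libraries, and 2-C was the lowest. In code L they lay between 1.17 and 7.16. The highest CRC-like contig, Mm734, had the same order of libraries in code 2, at 438, 310 and 85.5, after 932 and 1215 in code 0 and 58.4 to 116 in code 1.

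Compared with code 0, the same 5 contigs were called lower in code 2, with log2 differences from -4.01 (Mm4906; SE 0.89; limma, adjusted p = 0.00734) to -1.94 (Mm8282; SE 0.61; limma, adjusted p = 0.038). Without 2-A the differences were larger in size, at -5.18 for Mm4906 and -4.76 for Mm103512. The call of Mm8282 held in only 10 of 22 other settings. All 5 calls were lost without 0-A, without 0-B, and when codes 1 and L were left out of the fit. The pattern of the 5 contigs across the 11 libraries was alike, with Pearson's r of log2 values of 0.917 to 0.987 over the 10 pairs. These contigs share a best match and the libraries, so r only describes them.

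**Figure D2:**
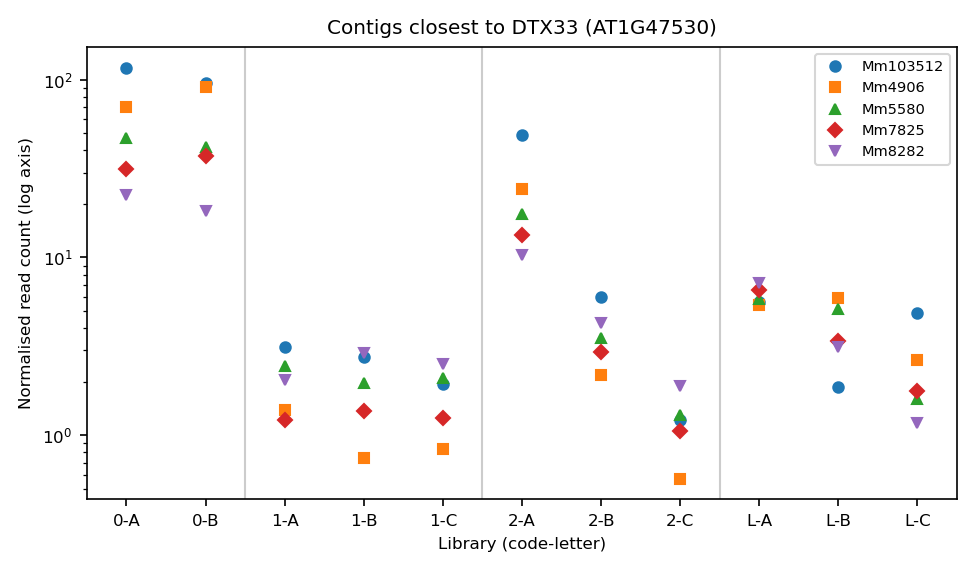
Normalised read counts on a log axis of the 5 contigs closest to DTX33 in each of the 11 libraries, with codes separated by grey lines. All 5 were highest in 0-A and 0-B (18.2 to 117), followed by 2-A (10.3 to 49.1), and lay at 0.570 to 7.16 elsewhere.

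Other contigs lower in code 1 than in code 0 came from several loci. Mm7584, closest to AT3G26590, was at 162 and 177 in code 0, 42.4, 25.8 and 30.7 in code 1, 23.5, 15.7 and 28.1 in code 2 and 30.8, 32.1 and 47.4 in code L. It stood apart only in code 0. Its log2 difference was -2.36 (SE 0.31; limma, adjusted p = 2.84e-04) for code 1 and -2.90 (SE 0.31; limma, adjusted p = 9.81e-05) for code 2. Mm88588 of the same locus was at 18.1 and 13.2 in code 0 and at most 2.48 elsewhere. It reached 5 only in code 0, so it is a member through the code where it is high and is described by these values alone. Mm5562, also of that locus, spanned 26.8 to 104 over all libraries and was called in none of the 4 comparisons.

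Mm91599, the highest contig like ALF5, which protects Arabidopsis roots against toxic compounds, was at 15.4 and 18.2 in code 0, 1.74, 1.28 and 0.390 in code 1, 2.01, 2.08 and 1.25 in code 2 and 8.24, 14.6 and 4.74 in code L. Codes 1 and 2 were below every library of codes 0 and L. Against code 0, the log2 difference of code 1 was -3.11 (SE 0.46; limma, adjusted p = 5.83e-04) and that of code 2 was -2.69 (SE 0.46; limma, adjusted p = 0.00155). Mm62538 (AT5G52450), at 30.8 and 37.6 in code 0 and 5.47 to 7.80 in code 1, fell by 2.22 on the log2 scale, a call lost without 0-B (difference -2.08 in that setting). Mm122371 (AT3G21690), Mm31661 (AT1G15170) and Mm221652 (AT3G03620) fell by 2.08, 1.80 and 1.63.

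The contigs higher in code 1 were led by Mm770, closest to AT5G65380. It was at 0.351 and 0.741 in code 0, 82.5, 63.3 and 116 in code 1, 142, 41.2 and 120 in code 2 and 27.3, 10.3 and 12.0 in code L. Codes 1 and 2 were above every library of codes 0 and L. The log2 difference from code 0 was 5.80 (SE 0.54; limma, adjusted p = 3.77e-05) for code 1 and 5.88 (SE 0.54; limma, adjusted p = 3.97e-05) for code 2.

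Mm3323, closest to AT1G71870, was at 0.647 and 1.31 in code 0, 27.8, 21.8 and 36.2 in code 1, 44.6, 41.2 and 53.8 in code 2, and at most 0.413 in code L. No library of codes 1 and 2 overlapped with those of codes 0 and L. The log2 difference from code 0 was 3.90 (SE 0.31; limma, adjusted p = 1.76e-05) for code 1 and 4.60 (SE 0.31; limma, adjusted p = 8.55e-06) for code 2. Of the other contigs of this locus, Mm23553 was at 2.40 to 3.31 in code 1 and reached 15.7 in code 2 (lowest 2.80), and Mm294909 at 10.1, 7.49 and 5.84 in code 1 but at 0, 0.596 and 0.680 in code 2. Mm294909 reached 5 only in code 1, so it is a member through the code where it is high, and its difference between codes is given as these values alone. Mm3323 was not called between codes 2 and 1 (0.70; SE 0.28; limma, adjusted p = 0.313).

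Contigs closest to AT2G38330 formed the largest set, with 8 members, of which 5 were tested. Mm175 was at 3.37 and 1.84 in code 0, 11.7, 19.3 and 14.7 in code 1, 19.9, 31.3 and 10.4 in code 2 and 3.14, 4.67 and 4.71 in code L. Its log2 difference from code 0 was 2.18 (SE 0.43; limma, adjusted p = 0.00351) for code 1, a call lost without 0-B, and 2.49 (SE 0.43; limma, adjusted p = 0.00175) for code 2. In all, 3 contigs of this locus were called higher in code 1 (Mm24139 by 2.76, Mm1574 by 2.37, Mm175), and 4 in code 2 (the same ones and Mm103872 by 2.20), with none lower. For code 1, the call of Mm24139 was lost without 0-B, without 1-B and without 1-C, and that of Mm1574 held in only 11 of 22 other settings. For code 2, the calls of Mm1574 and Mm103872 each held in 15 of 22 and that of Mm24139 in 16, and all 3 were lost without 0-B, without 2-A and without 2-B. Within code 2 these contigs were lowest in 2-C: Mm103872 was at 33.1, 44.9 and 5.78, and Mm1574 at 17.4, 20.2 and 1.90. Mm24139 was at 8.34 to 19.6 in code L, where Mm182787 was listed at 0 in all 3 libraries, so contigs of this locus differed in code L.

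**Figure D3:**
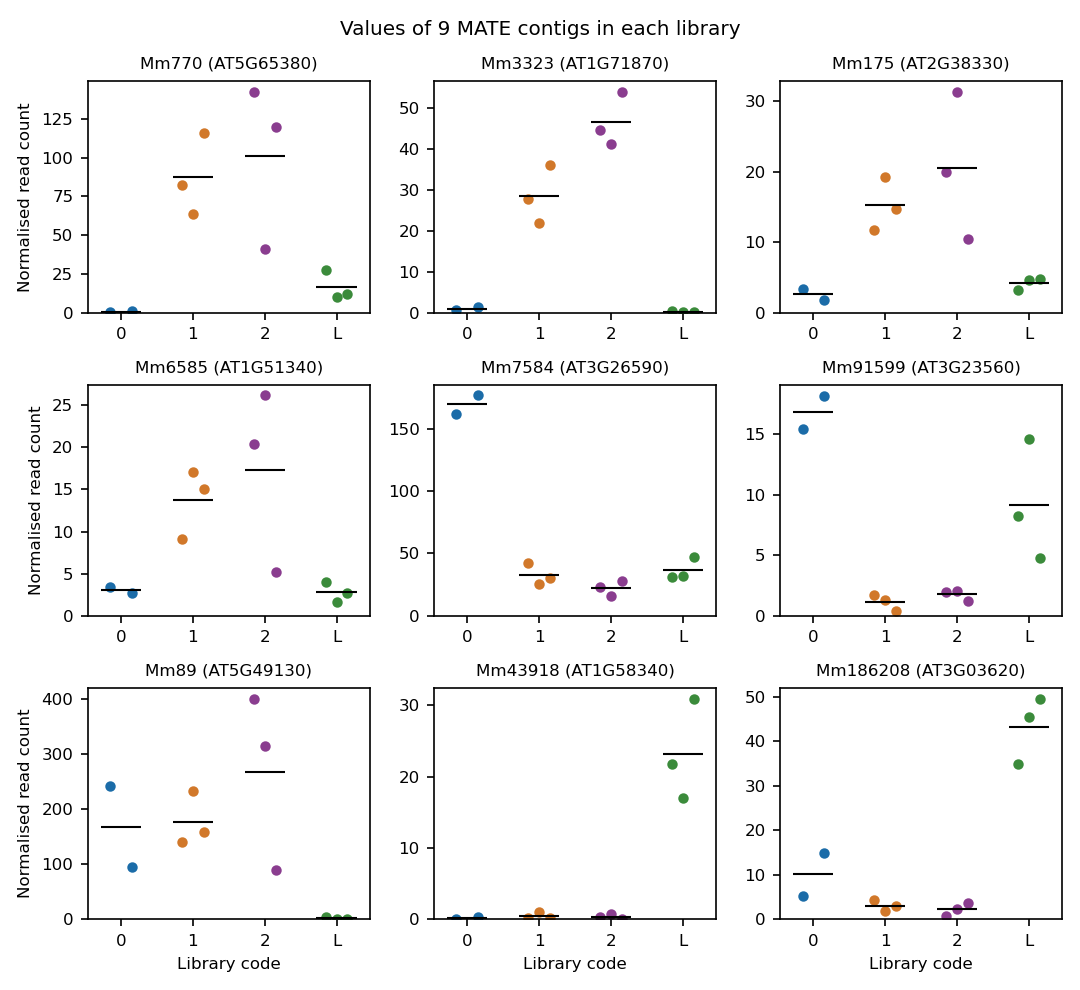
Normalised read counts (linear axes from 0, each panel with its own range) of 9 contigs by library code, with points for libraries and a line for the code mean. Mm770, Mm3323, Mm175 and Mm6585 had their highest means in codes 1 and 2, Mm7584 and Mm91599 in code 0, Mm89 was near 0 only in code L, and Mm43918 and Mm186208 were highest in code L.

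The citrate transporters were represented by 4 contigs closest to DTX42 (AT1G51340) and 2 closest to FRD3 (AT3G08040). Mm6585, the highest like DTX42, was at 3.43 and 2.76 in code 0, 9.08, 17.1 and 15 in code 1, 20.4, 26.2 and 5.17 in code 2 and 4.04, 1.67 and 2.68 in code L. Codes 1 and 2 were above both code 0 libraries and above code L. The log2 difference from code 0 was 1.81 (SE 0.57; limma, adjusted p = 0.0362) for code 1 and 1.91 (SE 0.57; limma, adjusted p = 0.0312) for code 2. Both calls were lost without 0-A and without 0-B (differences of 1.69 to 2.03), where a single library stood for code 0. The first was also lost without 1-B or 1-C, and the second without 2-A or 2-B.

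A second DTX42-like contig, Mm6330, was at 6.56 and 8.19 in code 0, 3.44 to 7.55 in code 1, 18.3, 11.5 and 10.7 in code 2 and 2.39 to 9.43 in code L. Code 2 was above all other libraries, but the contig was called in none of the 4 comparisons (log2 difference of code 2 from code 1, 1.27; SE 0.43; limma, adjusted p = 0.228). With library weights it was called higher in code 2 than in code 1 (1.48; limma, adjusted p = 0.0297). The FRD3-like contigs were low and entered the tests only with the filter lowered to 5, which took in all 64 contigs. Mm379772 lay between 1.74 and 8.90 over all libraries, with code 2 lowest at 1.74 to 2.05, and was then lower in code 2 than in code 0 (log2 difference -1.46; limma, adjusted p = 0.0269). Mm51413 was at 0.806 and 1.09 in code 0 and 5.08 to 6.79 in code 1, and was then higher in code 1 (1.85; limma, adjusted p = 0.00741). In no comparison were both called: the difference of Mm379772 between codes 1 and 0 was -0.98 (limma, adjusted p = 0.11), and that of Mm51413 between codes 2 and 0 was 1.16 (limma, adjusted p = 0.064).

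Mm1930, the highest contig like EDS5H, a plastid relative of EDS5, was at 54.4 and 35.8 in code 0, 5.07, 10.6 and 6.84 in code 1, 46.3, 27.2 and 2.99 in code 2 and 3.11 to 9.81 in code L. Code 1 was below both code 0 libraries, but the difference of -2.46 missed the threshold (SE 0.85; limma, adjusted p = 0.0516). The spread within code 2 (25.5 ± 21.7, SD, n = 3) took in the values of both codes 0 and 1. Contigs like EDS5 itself (Mm131768, at most 5.01) and TT12 (Mm163512, at most 7.03, in 0-B) did not reach the level used for members. A contig like the flower flavonoid transporter DTX35, which carries another annotation and is no member, was at 7.79 and 9.56 in code 0, 0.562 to 3.06 in codes 1 and 2 and 24.3, 18.5 and 4.40 in code L (Mm157808).

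Against code 0, 9 MATE contigs were higher in code 2 and 15 were lower, and 17 were not called. Of all contigs 24% were called, 11.5% higher and 12.5% lower, and the median difference was -0.64 for the MATE contigs and 0.05 for all contigs. Besides the loci above, Mm1537 and Mm18362 (AT5G65380) were higher in code 2 by 1.43 and 1.15. Their calls held in 17 and 15 of 22 other settings, and both were lost when codes 1 and L were left out of the fit. All 4 tested contigs of AT3G03620 were lower, by -1.25 (Mm13660), -1.74 (Mm186208), -2.20 (Mm221652) and -1.52 (Mm59737), but the call of Mm59737 held in only 10 of 22 other settings and that of Mm186208 was lost without 0-B and without 2-A. The count fell to 11 without 0-A, 7 without 0-B, 10 when codes 1 and L were left out of the fit, and 0 (19 at an unadjusted p under 0.05, limma) with the filed grouping, while the calls over all contigs fell from 6252 to 2423, 2269, 4075 and 0.

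The fewest calls were made between code 2 and code 1: limma called 0 of the 41 MATE contigs, and 7 had an unadjusted p under 0.05. Of all contigs 1.17% were called, 0.184% higher and 0.983% lower. Few calls need not mean likeness, since libraries of code 2 spread more (r of log2 values 0.767 to 0.878, against 0.93 to 0.967 within code 1). Without 2-C the calls over all contigs rose from 304 to 1458. The lowest unadjusted p values belonged to the contigs closest to AT1G33110. Mm50955 was at 24.8, 18.9 and 35.1 in code 1 and 3.34, 9.02 and 9.43 in code 2, without overlap (log2 difference -1.79; SE 0.39; limma, adjusted p = 0.0625). Mm310863 was at 19.8, 16.1 and 30.2 in code 1 and 0.971, 5.5 and 7.2 in code 2, also without overlap (-2.24; SE 0.50; limma, adjusted p = 0.0661). These 2 contigs, singled out after their values were seen, were called without 2-B, without 2-C and with a pseudocount of 5. Library weights called both among 5 MATE contigs, in a fit that called 1915 of all contigs against 304 without weights.

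**Figure D4:**
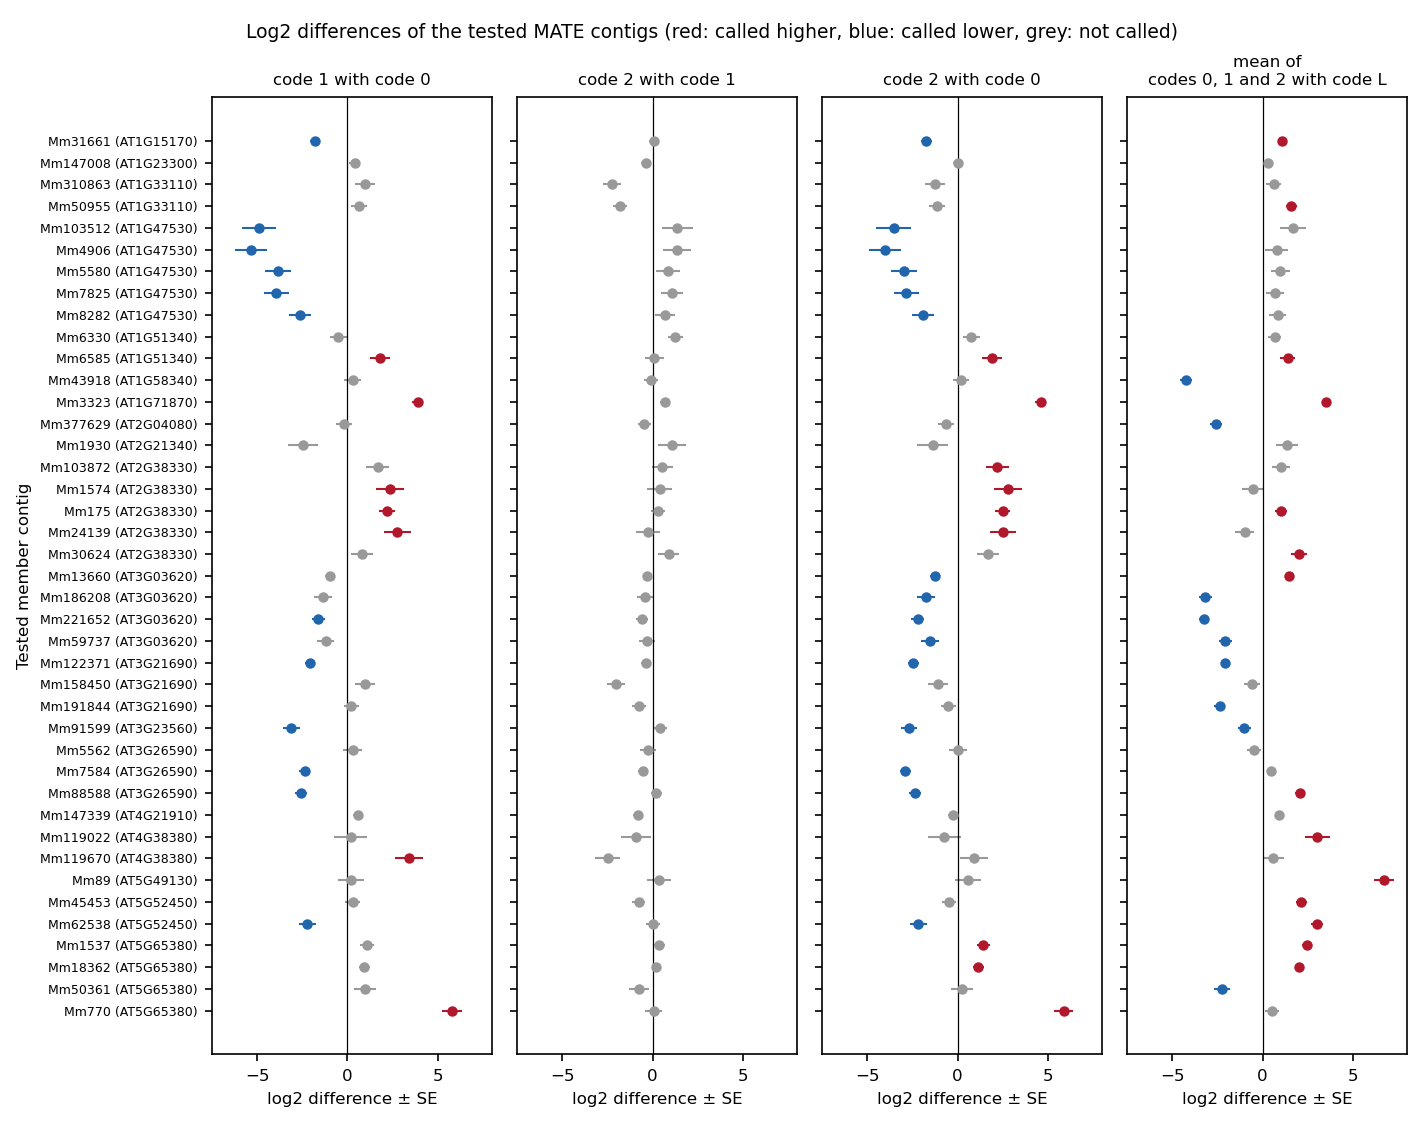
Log2 differences with standard errors of the 41 tested MATE contigs in the 4 comparisons, from limma over all 11 libraries. Red marks contigs called higher in the code named first, blue those called lower and grey those not called. Of the 41, 19, 0, 24 and 23 were called from left to right.

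The last comparison sets the mean of codes 0, 1 and 2 against code L. The MATE contigs split into 14 higher in codes 0, 1 and 2, 9 lower and 18 not called. Of all contigs 69.4% were called, 55.5% higher and 13.8% lower, and the median difference of all contigs was 1.20 (0.77 for the MATE contigs). This split depended on the scaling of the libraries. With equal totals 9 MATE contigs were higher and 15 lower, and with median ratio scaling 6 were higher and 18 lower, at median differences over all contigs of 0.66 and 0.10. The larger side therefore turned, and 18 and 15 of the 23 calls stood under these scalings.

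Mm89, closest to AT5G49130, had the largest difference of any MATE contig. It was at 241 and 94.9 in code 0, 140, 233 and 158 in code 1, 400, 314 and 89.0 in code 2 and 3.19, 0.146 and 0.0380 in code L. Its log2 difference from code L was 6.73 (SE 0.54; limma, adjusted p = 1.95e-06) and was called under every setting, between 4.96 and 8.55. Codes 0, 1 and 2 overlapped, and Mm89 was not called between them. Mm31709 of the same locus, at 1.34 to 7.79 in codes 0, 1 and 2, was listed at 0 in all 3 code L libraries.

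Also higher than in code L were Mm3323 by 3.53 (SE 0.23; limma, adjusted p = 5.93e-07), Mm62538 by 3.01 (SE 0.34; limma, adjusted p = 1.63e-05) and Mm1537 by 2.45 (SE 0.28; limma, adjusted p = 1.94e-05). Mm62538 was at 0.459 to 0.700 in code L. For Mm3323 the mean hides a split, since code 0 was as low as 0.647 and 1.31. Mm119022, closest to AT4G38380, was listed at 0 in all code L libraries and in 2-A, and at 5.80 to 12.8 in the other 7.

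Contigs high in code L formed a second set. Mm43918, closest to BCD1 (AT1G58340), an Arabidopsis MATE protein linked to iron homeostasis, was at 21.8, 17.0 and 30.9 in code L and at most 1.06 in the other 8 libraries. Mm43918 reached 5 only in code L, so it is a member through the code where it is high and is described by these values alone. Mm377629 (AT2G04080) was at 34.7, 33.8 and 18.9 in code L and 1.47 to 5.54 elsewhere. The log2 difference of the mean of codes 0, 1 and 2 from code L was -2.57 for Mm377629 (SE 0.32; limma, adjusted p = 3.34e-05).

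At the locus AT3G03620, contigs moved apart. Mm186208 was at 34.9, 45.3 and 49.5 in code L, 5.14 and 14.9 in code 0, and between 0.701 and 4.28 in the libraries of codes 1 and 2. Its difference was -3.17 (SE 0.37; limma, adjusted p = 2.33e-05), but outside code L it reached 10 only in 0-B. Mm221652 was at 22.2 to 39.2 in code L and at most 7.45 elsewhere, and Mm59737 at 10.2 to 21.5 and at most 7.74. Both reached 10 only in code L, so they entered the tests through the code where they are high. They are described by these values alone. Mm13660 went the other way, at 5.42 to 5.92 in code L and 10.2 to 32.9 in the rest (1.46; SE 0.20; limma, adjusted p = 6.92e-05), but that call was lost with equal totals and with median ratio scaling. At AT5G65380, Mm50361 was higher in code L (49.1, 15.4 and 24.0, against at most 11.5 elsewhere; difference -2.24) while Mm1537 and Mm18362 were lower there. Mm770 of that locus was not called (0.51; SE 0.40; limma, adjusted p = 0.257), with code L between code 0 and codes 1 and 2.

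**Figure D5:**
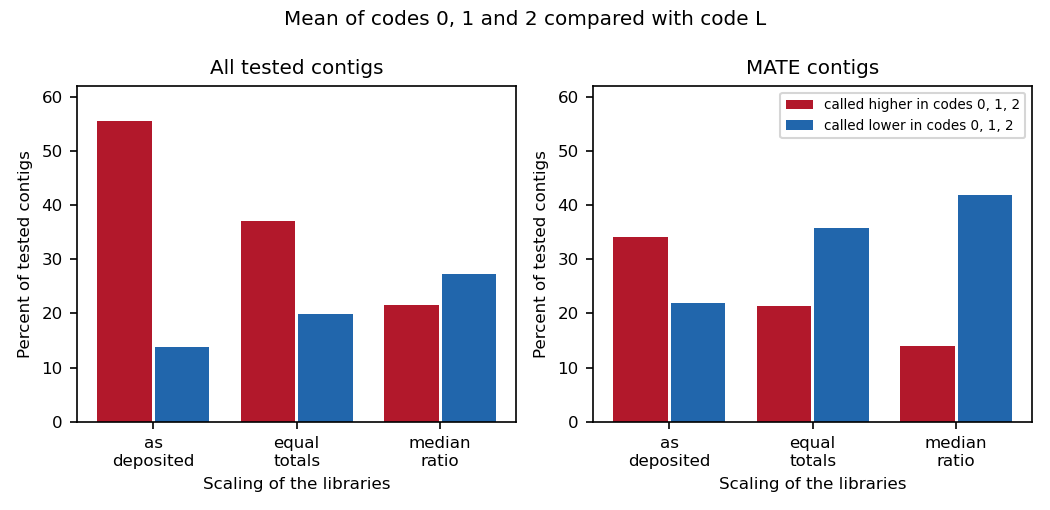
Percent of tested contigs called higher (red) or lower (blue) in the mean of codes 0, 1 and 2 than in code L, for all contigs (left) and the MATE contigs (right), under 3 scalings of the libraries. The MATE split moved from 14 higher and 9 lower as deposited to 6 higher and 18 lower with median ratio scaling.

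Some MATE contigs differed little between codes. Mm147008, closest to AT1G23300, was at 76.5 and 96.5 in code 0, 107, 145 and 95.8 in code 1, 105, 85.8 and 74.2 in code 2 and 91.3, 87.0 and 56.8 in code L. Its 4 log2 differences lay between -0.38 and 0.40, with standard errors of 0.21 to 0.29, and were not called. The other contig of that locus, Mm430980, was listed at 0 in all 8 libraries of codes 0, 1 and 2 and at 2.88, 7.51 and 22.4 in code L.

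Of the 23 contigs below the level of 10, the filter of 5 called 7 between codes 1 and 0 (4 higher, 3 lower), 1 between codes 2 and 1 (Mm294909, lower), 7 between codes 2 and 0 (4 higher, 3 lower) and 14 against code L (6 higher, 8 lower). The 8 contigs lower against code L all reached 5 only in code L. Mm294909 reached it only in code 1, Mm99587 only in code 0 and Mm23553 only in code 2. All of these are members through the code where they are high, so their calls support nothing. At that filter 24.7%, 1.09%, 22.3% and 63.9% of 38868 contigs were called in these comparisons. Among them, Mm10031 (AT4G38380) was listed at 0 in the 3 code 1 libraries and in 2-B, and at 4.05 to 10.2 in the others. Mm119670 of the same locus had nearly the reverse pattern: it was listed at 0 in both code 0 libraries, 2-A, 2-C and L-A, and at 12.1, 7.19 and 10.6 in code 1. Zeros that alternate between contigs of a locus may be failed estimates. Mm119670 reached 10 only in code 1, so it entered the tests through the code where it is high and is described by these values alone.

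Genes linked to the substrates or to the drive for transport were read from 4 lists. A list holds several kinds of genes, so its counts do not show how much substrate was made. Proton pumps of the vacuolar membrane, which build the gradient that proton-coupled MATE proteins use, had 83 contigs tested. Of these, beside 25.8%, 24% and 69.4% of all contigs called in the same comparisons, 6 were higher and 7 lower in code 1 than in code 0, 0 higher and 10 lower in code 2 than in code 0, and 60 higher and 1 lower in codes 0, 1 and 2 than in code L. The citrate and malate list held citrate synthases, aconitases and malate transporters, and also contigs closest to AT1G34370, a gene of another kind. Of its 57 contigs tested, 11 were higher and 3 lower in code 1 than in code 0, and 8 higher and 1 lower in code 2. In codes 0, 1 and 2, 50 were higher than in code L, with none lower. Against code L the median differences of these lists were 1.82 and 2.15, beside 1.20 for all contigs. These list counts are for the values as deposited and were not recomputed under the other scalings. Mm240181, like the mitochondrial citrate synthase CSY4, was at 17.5 and 16.4 in code 0 and 67.4, 83.4 and 93.6 in code 1, a rise of 2.19 on the log2 scale, and at 21.9, 108 and 24.8 in code 2. Another contig like CSY4, Mm148054, was called lower in code 1 (log2 difference -5.30; SE 1.36; limma, adjusted p = 0.014). It was at 32.2 and 45.9 in code 0, listed at 0 in all 3 code 1 libraries, and at 62, 0 and 52.9 in code 2, so it was listed at 0 in the 4 libraries where Mm240181 was highest.

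In the list of other phenolic transport 8 contigs were tested. Of these, 4 were higher and 1 lower in code 1 than in code 0, and 4 higher and 2 lower in code 2 than in code 0. Of all contigs, 25.8% and 24% were called in these comparisons. The 4 higher contigs were all like ABCC4 (Mm41, Mm436, Mm9233 and Mm338), so the counts of higher contigs rest on 1 locus. What these proteins carry in Melianthus was not tested. Mm41, like the ABC transporter ABCC4, was at 1.95 and 0.384 in code 0, 102, 51.4 and 95.5 in code 1, 102, 147 and 113 in code 2 and at most 0.785 in code L. Mm33831, like ABCC3, was at 47.5 and 61.2 in code 0 and at most 1.26 elsewhere. Mm3360, like TT19, which carries anthocyanins towards the vacuole, was higher in codes 0, 1 and 2 (18.5 to 154) than in code L (0.157 to 1.06). Between codes 2 and 1, limma called 0 of the 148 contigs tested in these 3 lists, beside 1.17% of all contigs. With so few calls over all contigs, this 0 does not set the lists apart. Before adjustment, 23 of the 148 had a limma p below 0.05. In the salicylate list around EDS5 all 5 contigs were below 10, and their sum was 3.27 to 8.37 in every library.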

How the data were processed

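RNA from leaves and nectaries was sequenced as paired-end reads, and the deposited signal values are normalised read counts per contig, per the file headers. kallisto 0.46.1 is named in the submitters' processing notes, and their normalisation is not described there. Low values showed no common step worth 1 read, so reads could not be recovered, no count test was used and the depth is unknown.

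limma 3.58.1, run under R 4.3.3, was fitted to log2(value + 1) (trended empirical Bayes, 1 mean per library code, all 11 libraries in 1 fit, no block). Contigs that reached 10 in 2 or more libraries were tested, and Benjamini-Hochberg adjustment ran over all of them. The script was tested on simulated data. Groups are the codes in the column headers, since the filed labels cross them.

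The members and gene lists were chosen with earlier results of these data known. Named contigs are the 4 called members with the largest difference per comparison and direction, the highest member of each locus with a known role, and the 6 highest members. Contigs named beyond this rule, to show how contigs of a locus differ or which came nearest to a call, were chosen after their values were seen. Alternatives were other pseudocounts, filters and scalings, a block by library letter, the filed grouping, library weights, fewer libraries and each library left out.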

Additional observations from a re-analysis of the deposited data

How the results depend on the processing

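No call of a MATE contig turned its sign under any of the 23 other settings. For code 1 against code 0 (19 called), a filter of 50 left 4 calls among 7 contigs tested, the filed grouping gave 0, and leaving out 1 library gave 9 to 24. Of the 19 calls, 11 held in every setting that gave a value except the filed grouping. For code 2 against code 1 (0 called), a pseudocount of 5 gave 2, no filter 1, a filter of 5 gave 1, library weights 5, and leaving out 1 library 0 to 5 (3 without 2-B and 5 without 2-C). For code 2 against code 0 (24 called), the filter of 50 gave 4, the filed grouping 0, only the libraries compared 10, and leaving out 1 library 7 to 26. Of these 24 calls, 9 held in every setting that gave a value except the filed grouping. Against code L (23 called), no filter and a filter of 5 each gave 37, where 64 contigs were tested, and a filter of 50 gave 1. Leaving out 1 library gave 20 to 26, and 15 of the 23 calls held in every setting that gave a value. Apart from the filters, which change the number of contigs tested, the cause was not tested. Without 1-A and 2-A, a setting chosen after seeing the data, the 4 counts were 21, 0, 16 and 23.

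The library letters were not taken to pair the libraries, since the labels do not pair them. Over 15 pairs with the same letter in different codes, deviations from the code means correlated at -0.13 to 0.24, and 8 pairs were over 0.1. Pairs with different letters lay at -0.34 to 0.25. The pairs share libraries, and 0-A and 0-B mirror each other around their mean, so these values cannot decide whether letters pair libraries. With the letter as a replicate block the counts were 22, 1, 25 and 24, the call between codes 2 and 1 being Mm310863 (-2.24; limma, adjusted p = 0.0473). With unknown depth, no floor can be given for values near 0.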
